A study of Mus musculus with 6 samples.

Results

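The p53 target genes examined here were Cdkn1a, Ccng1, Mdm2, Bax, Aen, Eda2r, Phlda3, Trp53inp1, Sesn1 and Zmat3. Each of the 10 symbols matched 1 row by gene name among the 43346 genes of the table. All 10 members passed the filter on low counts and were among the 19352 genes tested. RNA came from mouse liver, and all 6 samples share the FFC diet, a dietary model of fatty liver with inflammation (MASH), and a short hairpin RNA (shRNA), with an AAV8 viral construct named in the design text for the silencing. In 3 samples (numbered 2, 3 and 2600) the label names an shRNA against S100a11 and calls the genotype a knockdown (KO), and in 3 samples (28, 30 and 31) it names a scrambled shRNA and calls the genotype control. The labels do not give the promoter of the hairpins, the strain, the sex or the age. They also do not say whether each library is a different mouse, so the p-values below speak only of the spread between libraries, which may be technical.

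p53, encoded by Trp53, is a transcription factor that DNA damage and other stresses stabilise. It binds pairs of a 10-base DNA element, here called the p53 decamer, and raises genes of cell cycle arrest, apoptosis, DNA repair and metabolism, among them its own antagonist Mdm2. In the liver the pathway is known for restraining hepatocyte division and for its activity in damaged and fatty liver.

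Depth was 53517387 to 78091845 counts per library. S100a11, the targeted gene, stood at 16.0, 3.55 and 3.41 CPM (counts scaled to a common library size with TMM factors) in the libraries labelled S100a11 shRNA 2, 3 and 2600, against 15.9, 22.9 and 30.0 CPM in scrambled libraries 28, 30 and 31. The library labelled S100a11 shRNA 2 was thus level with the lowest scrambled library, and the S100a11 difference stayed short of the threshold of 0.05 (log2 change -1.57 ± 0.56 SE, edgeR adjusted p = 0.095). Each direction below is that of the libraries as labelled. Without library 2 the S100a11 change was -2.75 (edgeR adjusted p = 0.00044). The hepatocyte genes Alb, Trf and Apoa1 were the most abundant of the liver markers, with Alb at 25290 ± 5159 CPM in the libraries labelled S100a11 shRNA and 21070 ± 2575 CPM in scrambled libraries (SD, n = 3 each).

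None of the 10 p53 target genes passed the threshold. Over all 19352 tested genes 14.1% did so at an edgeR adjusted p under 0.05, 5.82% higher and 8.28% lower. At an unadjusted p under 0.05 the members numbered 3 (Phlda3 and Sesn1 lower, Trp53inp1 higher), against 29.7% of all genes. DESeq2 called 1 member lower, Phlda3, against 11% of all genes lower with that tool, and limma voom called 0. Without library 2 edgeR called 2 members lower, Cdkn1a and Phlda3, against 12% of all genes lower in that fit. No member was called in the fits that left out any other library. With library totals in place of TMM factors edgeR called 5 members lower, Cdkn1a (-0.81), Mdm2 (-0.50), Bax (-0.64), Phlda3 (-1.18) and Sesn1 (-0.68), while that scaling also moved the median of all tested genes to -0.32 and their calls to 397 higher and 3970 lower (20.5% lower), against 1126 and 1602 with TMM. The members' median lay 0.32 below that of all genes with library totals and 0.33 below it with TMM. A change of scaling moves all genes by nearly the same amount, so these 2 values had to lie close together. With 1 library left out the difference ranged from -0.35 (without library 2) to -0.18 (without library 2600), and it was -0.23 without scrambled library 31. By sign, 9 members were lower and 1 was higher, beside 8931 lower and 10420 higher among all 19352 tested genes. The median log2 change of the members was -0.29 beside 0.04 over all tested genes. The smallest change was that of Ccng1 (-0.03) and the widest were those of Phlda3 (-0.84) and Trp53inp1 (0.60). In whole liver, fewer cells of a type that expresses a gene and less RNA of it per cell cannot be told apart.

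**Figure D1:**
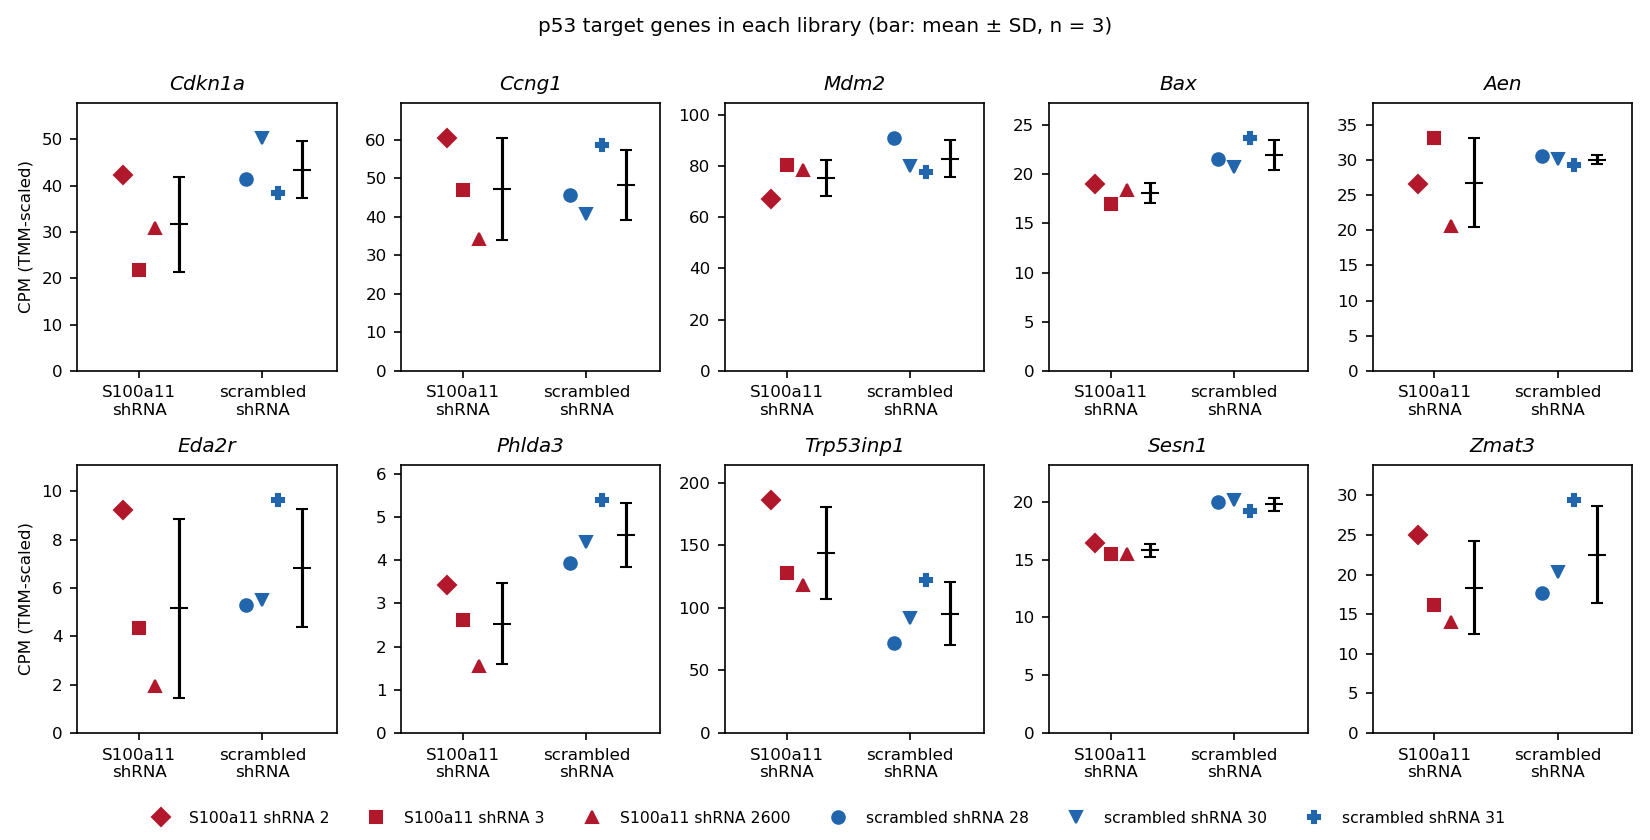
Level of each p53 target gene in every library, in TMM-scaled CPM on a linear axis from 0, with the libraries labelled S100a11 shRNA (red) left of the scrambled libraries (blue) and the mean ± SD of each group (n = 3) as a bar. The groups do not overlap for Bax, Phlda3 and Sesn1, each lower in the libraries labelled S100a11 shRNA. Among all tested genes 34.7% did not overlap, 18.1% lower.

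Promoter sequence was available from RefSeq for 8 of the 10 members, as 300 bases around each annotated start (250 before and 50 after, build GRCm38.p6). The exact p53 decamer, whose letters read the same on both strands, occurred in 6 of these 8 genes (75.0%), in 5 of 24 other p53 targets with an entry (20.8%) and in 9.55% of all 27025 genes with an entry. Members were chosen as p53 targets, so this share describes the choice and is no finding about these livers. A pair of adjacent decamers without spacer, with at most 1 letter off among the 20, occurred in 2 members, Cdkn1a and Ccng1, against 0.107% of all genes with an entry (29 genes). RefSeq lists 2 starts for Cdkn1a, and the window of the second held no decamer and no pair. The 250 bases before the first Cdkn1a start and the Ccng1 start are shown because they hold these pairs, with exact decamers and the 20-base pairs in capitals. That of Cdkn1a is chr17:29090729-29090978 on the plus strand, with the pair at chr17:29090928-29090947, beginning 51 bases before the start. That of Ccng1 is chr11:40755287-40755536, written on the minus strand, with the pair at chr11:40755462-40755481, beginning 195 bases before the start.
Cdkn1a: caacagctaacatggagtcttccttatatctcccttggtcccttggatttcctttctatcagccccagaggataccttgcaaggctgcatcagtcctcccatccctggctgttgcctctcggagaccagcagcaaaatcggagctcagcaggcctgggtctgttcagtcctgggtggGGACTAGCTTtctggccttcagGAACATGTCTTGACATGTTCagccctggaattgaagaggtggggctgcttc
Ccng1: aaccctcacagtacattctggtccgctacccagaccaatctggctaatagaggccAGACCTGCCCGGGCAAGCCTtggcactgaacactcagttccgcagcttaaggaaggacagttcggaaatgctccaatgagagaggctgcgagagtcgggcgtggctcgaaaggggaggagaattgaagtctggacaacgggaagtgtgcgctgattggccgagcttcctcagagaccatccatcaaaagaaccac

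The other members with an exact decamer in this window were Mdm2, Bax, Aen and Sesn1, shown as 30 bases with the decamer in capitals so that the letters can be compared with those of Cdkn1a. They lie at chr10:117710925-117710954 (minus strand), chr7:45467080-45467109 (minus strand), chr7:78895927-78895956 (plus strand) and chr10:41887256-41887285 (plus strand, the second listed start of Sesn1).
Mdm2: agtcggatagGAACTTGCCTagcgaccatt
Bax: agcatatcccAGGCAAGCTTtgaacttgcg
Aen: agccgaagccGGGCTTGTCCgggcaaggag
Sesn1: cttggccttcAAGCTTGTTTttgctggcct
Eda2r and Phlda3 held no exact decamer in their windows, which says only that these letters are absent there. Zmat3 and Trp53inp1 had no entry.

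Cdkn1a encodes p21, the inhibitor of cyclin-dependent kinases through which p53 arrests the cell cycle. Its mm10 position is chromosome 17, 29090979 to 29100722. Cdkn1a stood at 42.3, 21.9 and 30.8 CPM in the libraries labelled S100a11 shRNA 2, 3 and 2600, against 41.4, 50.3 and 38.5 CPM in scrambled libraries 28, 30 and 31. Libraries 3 and 2600 lay below every scrambled library, while library 2 lay within the scrambled range, so the groups overlapped. The group means were 31.6 ± 10.2 CPM in the libraries labelled S100a11 shRNA and 43.4 ± 6.16 CPM in scrambled libraries (SD, n = 3 each). The log2 change was -0.46 ± 0.23 (SE), with a 95% interval of -0.98 to 0.06 (edgeR adjusted p = 0.22). Without library 2, the library in which S100a11 was not low, the Cdkn1a change was -0.76 and passed the threshold (edgeR adjusted p = 0.023). It was -0.25 without library 3 and -0.34 without scrambled library 30 (edgeR adjusted p = 0.51 and 0.53).

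Ccng1, cyclin G1, is a p53 target that recruits a phosphatase to Mdm2, on chromosome 11 from 40748552 to 40755311. Its levels were 60.5, 46.8 and 34.2 CPM in libraries 2, 3 and 2600, against 45.5, 40.8 and 58.5 CPM in scrambled libraries 28, 30 and 31. Library 2 lay above and library 2600 below every scrambled library, and the groups overlapped. The log2 change of -0.03 ± 0.22 (SE) had a 95% interval of -0.53 to 0.47 (edgeR adjusted p = 0.94), and its sign turned without library 2600 (0.15) or without scrambled library 31 (0.13).

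Mdm2, the ubiquitin ligase that marks p53 for degradation and so closes its feedback loop, lies on chromosome 10 from 117688888 to 117710758. It stood at 67.1, 80.3 and 78.4 CPM in libraries 2, 3 and 2600, against 90.9, 79.9 and 77.7 CPM in scrambled libraries 28, 30 and 31. Only library 2 lay outside the scrambled range, below it. The log2 change was -0.14 ± 0.13 (SE), with a 95% interval of -0.44 to 0.17 (edgeR adjusted p = 0.54), and it was -0.06 without scrambled library 28. Mdm2 had a narrow spread, with the highest library of each group 1.20-fold (libraries labelled S100a11 shRNA) and 1.17-fold (scrambled) above the lowest.

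Among the members with roles in cell death, Bax encodes the pore-forming effector of mitochondrial apoptosis (chromosome 7, 45461695 to 45466898). It stood at 18.96, 17.0 and 18.4 CPM in libraries 2, 3 and 2600, against 21.5, 20.7 and 23.7 CPM in scrambled libraries 28, 30 and 31. Every library labelled S100a11 shRNA lay below every scrambled library. Groups of 3 that do not overlap were also found in 34.7% of all tested genes, 16.5% higher and 18.1% lower. The Bax change was -0.28 ± 0.13 on the log2 scale (SE), with a 95% interval of -0.58 to 0.02 (edgeR adjusted p = 0.20).

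Phlda3 encodes a pleckstrin homology domain protein that restrains the kinase Akt (chromosome 1, 135766119 to 135769136). It stood at 3.42, 2.62 and 1.55 CPM in libraries 2, 3 and 2600, against 3.94, 4.42 and 5.39 CPM in scrambled libraries 28, 30 and 31. The groups did not overlap, and library 2 was the nearest to the scrambled range. The means were 2.53 ± 0.94 CPM in the libraries labelled S100a11 shRNA and 4.58 ± 0.74 CPM in scrambled libraries (SD, n = 3 each). The log2 change was -0.84 ± 0.29 (SE), 1.79-fold lower, with a 95% interval of -1.49 to -0.19 (edgeR adjusted p = 0.086). The lowest value rests on 68 counts, with an exact Poisson interval of 52.8 to 86.2 counts. Phlda3 passed the threshold with DESeq2 (adjusted p = 0.0315) and, with edgeR, without library 2 (log2 change -1.15, adjusted p = 0.017). The change was -0.61 without library 2600 (edgeR adjusted p = 0.14), and leaving out any library other than library 2 gave an adjusted p of 0.12 to 0.24.

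Aen encodes an apoptosis-enhancing nuclease (chromosome 7, 78895854 to 78911209). It stood at 26.6, 33.1 and 20.5 CPM in libraries 2, 3 and 2600, against 30.6, 30.1 and 29.3 CPM in scrambled libraries 28, 30 and 31. The scrambled libraries lay close together, with library 3 above them and libraries 2 and 2600 below. Its log2 change was -0.16 ± 0.18 (SE), with a 95% interval of -0.57 to 0.24 (edgeR adjusted p = 0.58). It ranged from -0.35 without library 3 to -0.02 without library 2600.

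Eda2r, the receptor for the A2 form of ectodysplasin, is a death domain-lacking member of the TNF receptor family on the X chromosome (97333840 to 97377216). It stood at 9.22, 4.33 and 1.93 CPM in libraries 2, 3 and 2600, against 5.31, 5.51 and 9.64 CPM in scrambled libraries 28, 30 and 31. The level in library 2 was 4.77-fold that in library 2600, the widest range of any member within a group. The log2 change of -0.39 ± 0.48 (SE) had a 95% interval of -1.47 to 0.69 (edgeR adjusted p = 0.63), which holds both a fall and a rise of more than 1.5-fold. Without library 2 it was -1.13 (edgeR adjusted p = 0.054), against -0.01 without library 2600 and -0.05 without scrambled library 31 (edgeR adjusted p = 0.99 and 0.96).

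Trp53inp1, which encodes a stress protein that promotes p53 activity and autophagy (chromosome 4, 11156431 to 11174379), was the member with the higher mean. It stood at 186, 128 and 118 CPM in libraries 2, 3 and 2600, against 72.1, 92.3 and 122 CPM in scrambled libraries 28, 30 and 31. Libraries 2 and 3 lay above every scrambled library, and library 2600 lay below scrambled library 31. The means were 144 ± 36.8 CPM in the libraries labelled S100a11 shRNA and 95.4 ± 25.0 CPM in scrambled libraries (SD, n = 3 each). The log2 change was 0.60 ± 0.23 (SE), 1.51-fold higher, with a 95% interval of 0.07 to 1.12 (edgeR adjusted p = 0.12). The change was 0.34 without library 2 and 0.81 without scrambled library 31, and neither passed the threshold (edgeR adjusted p = 0.24 and 0.083).

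Sesn1, sestrin 1, couples p53 to the restraint of the growth kinase complex mTORC1 (chromosome 10, 41810574 to 41908424). It stood at 16.5, 15.5 and 15.5 CPM in libraries 2, 3 and 2600, against 19.97, 20.2 and 19.2 CPM in scrambled libraries 28, 30 and 31. The groups did not overlap. The coefficient of variation was 3.57% in the libraries labelled S100a11 shRNA, the smallest of the 10 members there, and 2.68% in scrambled libraries. The log2 change was -0.32 ± 0.13 (SE), 1.25-fold lower, with a 95% interval of -0.61 to -0.03 (edgeR adjusted p = 0.13).

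Zmat3 encodes a zinc finger RNA-binding protein that acts in splicing and RNA stability downstream of p53 (chromosome 3, 32334792 to 32366014). It stood at 25.0, 16.1 and 14.0 CPM in libraries 2, 3 and 2600, against 17.7, 20.4 and 29.4 CPM in scrambled libraries 28, 30 and 31. Libraries 3 and 2600 lay below every scrambled library and library 2 within the scrambled range. Zmat3 had a log2 change of -0.29 ± 0.26 (SE), with a 95% interval of -0.88 to 0.29 (edgeR adjusted p = 0.49). It ranged from -0.61 without library 2 to -0.05 without scrambled library 31 (edgeR adjusted p = 0.066 and 0.93). None of the 10 members overlapped another gene of the table.

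**Figure D2:**
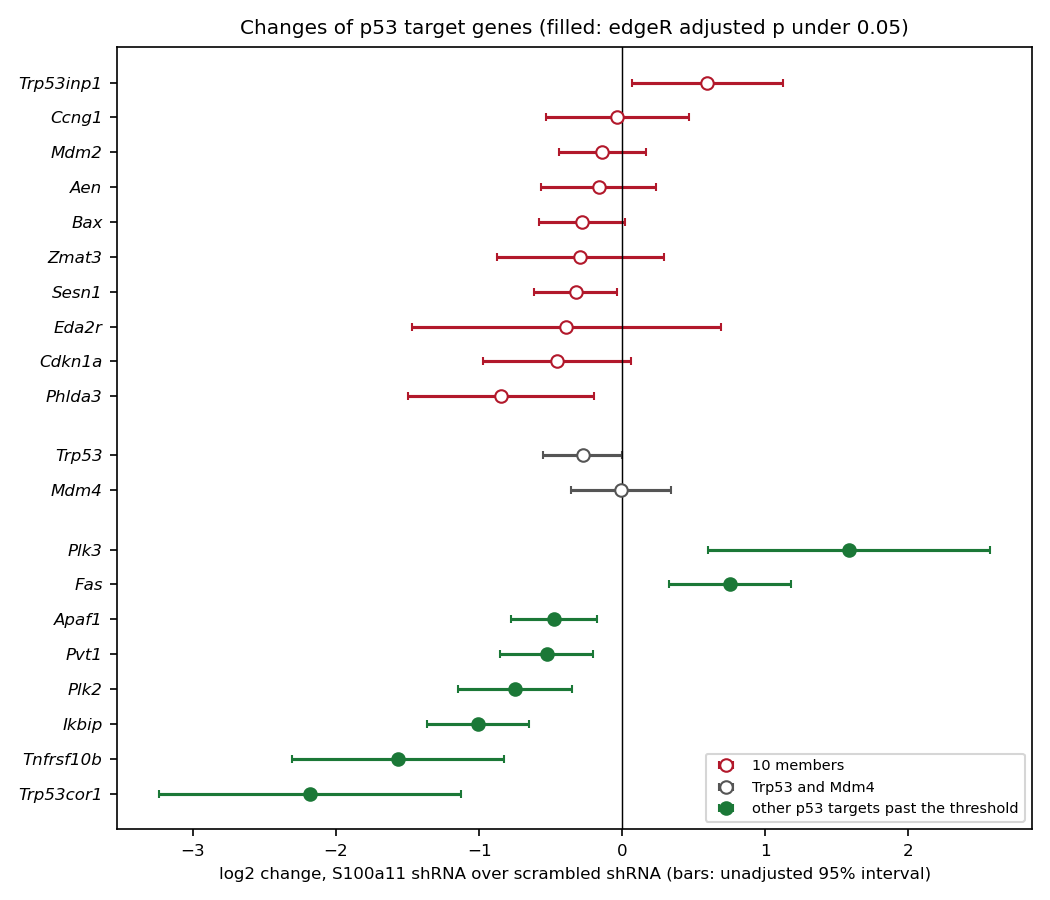
Log2 change of the 10 members, of Trp53 and Mdm4 and of the 8 other p53 targets past the threshold, with unadjusted 95% intervals on the horizontal axis; positive values are higher in the libraries labelled S100a11 shRNA, and filled points passed an edgeR adjusted p under 0.05. All 10 members are open points, from -0.84 (Phlda3) to 0.60 (Trp53inp1).

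The 3 libraries labelled S100a11 shRNA were unlike each other in these genes. In library 2600, 8 members lay below the scrambled range and 0 above it. In library 3, 6 members lay below and 2 (Aen and Trp53inp1) above. In library 2, 5 members lay below and 2 (Ccng1 and Trp53inp1) above. Library 2 held the highest level of the 3 for 8 members, and library 2600 the lowest for 7. The median member stood at 93.0%, 77.9% and 71.0% of the scrambled mean in libraries 2, 3 and 2600. Counts and medians of this kind over all tested genes were not taken. They thus describe the libraries and are no finding particular to these members. The coefficient of variation was larger in the libraries labelled S100a11 shRNA than in scrambled libraries for 8 of the 10 members, as for 74.1% of all tested genes. The share of counts taken by the non-coding gene Gm26917 differed along the same libraries, at 3.99%, 6.44% and 10.85% in libraries 2, 3 and 2600, against 3.16% to 4.42% in scrambled libraries, and its part in these levels was not tested.

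**Figure D3:**
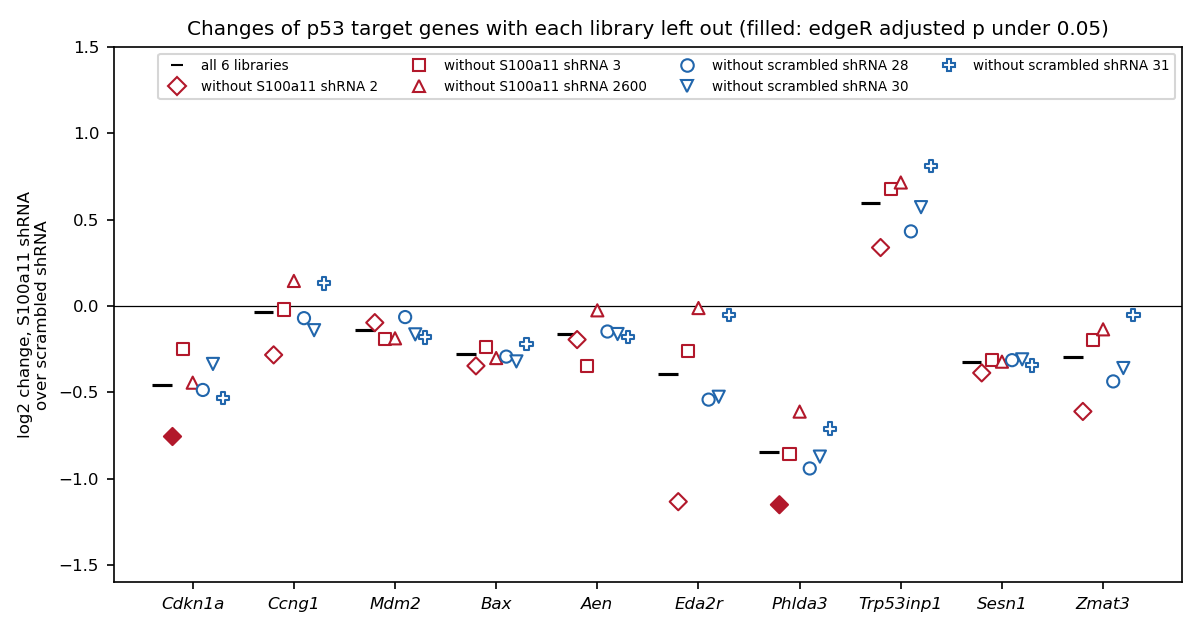
Log2 change of each member with all 6 libraries (black bars) and with each library left out in turn (symbols; red for libraries labelled S100a11 shRNA, blue for scrambled libraries), with filled symbols at an edgeR adjusted p under 0.05. The only filled symbols are Cdkn1a and Phlda3 without library 2, and the sign of Ccng1 turns without library 2600 or scrambled library 31.

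Levels between genes were compared per kilobase of the gene length in the table. In the libraries labelled S100a11 shRNA Trp53inp1 was the highest member at 22.3 ± 5.68 CPM per kilobase, followed by Bax at 20.8 ± 1.14, Mdm2 at 14.8 ± 1.41, Cdkn1a at 14.2 ± 4.60 and Ccng1 at 13.4 ± 3.74 (SD, n = 3 each). In scrambled libraries Bax was the highest at 25.3 ± 1.78 CPM per kilobase, followed by Cdkn1a at 19.5 ± 2.77, Mdm2 at 16.3 ± 1.40, Trp53inp1 at 14.7 ± 3.87 and Ccng1 at 13.8 ± 2.61. In the libraries labelled S100a11 shRNA the ranges of Trp53inp1 and Bax overlapped, as did those of Mdm2, Cdkn1a and Ccng1 with their neighbours in that order, while Bax lay above Mdm2 in every library. In scrambled libraries Bax lay above Cdkn1a in every library, and the ranges of Cdkn1a, Mdm2, Trp53inp1 and Ccng1 overlapped from neighbour to neighbour. In both groups Sesn1, Aen, Phlda3, Zmat3 and Eda2r followed in that order, with Ccng1 above Sesn1 and Aen above Phlda3 in every library. Sesn1 and Aen overlapped in the libraries labelled S100a11 shRNA and not in scrambled libraries, and the ranges of Phlda3, Zmat3 and Eda2r overlapped from neighbour to neighbour in both. Sesn1 stood at 4.75 ± 0.17 CPM per kilobase in the libraries labelled S100a11 shRNA and 5.94 ± 0.16 in scrambled libraries, and Eda2r, the lowest, at 0.88 ± 0.63 in the libraries labelled S100a11 shRNA and 1.16 ± 0.42 in scrambled libraries.

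Correlations between members over the 6 libraries, which share their scaling and fall into 2 groups, are a description only. The highest Pearson correlations of log2 CPM were those of Eda2r with Zmat3 (0.94) and with Ccng1 (0.93), and the lowest was that of Mdm2 with Trp53inp1 (-0.94). The genes outside the set whose log2 CPM was most like that of Cdkn1a over the 6 libraries were the DNA glycosylase gene Neil3 (Pearson's r 0.991), Agtrap (0.985), the spindle gene Spag5 (0.98), the transcription factor gene Myc (0.969) and Trim2 (0.964). None of these 5 passed the threshold, with log2 changes of -0.17 (Agtrap) to -0.64 (Myc, edgeR adjusted p = 0.099).

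Upstream of the members, Trp53 itself stood at 25.7, 27.8 and 25.0 CPM in libraries 2, 3 and 2600, against 31.98, 31.1 and 31.8 CPM in scrambled libraries 28, 30 and 31. The groups did not overlap, and the log2 change was -0.28 ± 0.12 (SE, edgeR adjusted p = 0.17), a value past the threshold with library totals (-0.63). Mdm4, the relative of Mdm2 that masks the activation domain of p53, stood at 152 ± 26.5 CPM in the libraries labelled S100a11 shRNA and 153 ± 9.24 CPM in scrambled libraries (SD, n = 3 each, log2 change -0.01 ± 0.16 SE, edgeR adjusted p = 0.98). Of 19 tested regulators of p53, 0 passed the threshold with edgeR and 0 had an unadjusted p under 0.05, against 14.1% and 29.7% of all genes. The regulators include Trp53 and Mdm4 themselves, damage kinases such as Atm and Atr, acetyltransferases and ubiquitin ligases. DESeq2 and limma voom called 0 of them. With library totals 3 were lower, against 20.5% of all genes lower in that fit. The median log2 change of the 19 regulators was 0.07. The p53 relatives Trp63 and Trp73 held at most 7 and 4 counts in any library and were not tested.

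Other genes commonly named as p53 targets gave calls in both directions. Of 33 tested, 2 were higher and 6 lower at an edgeR adjusted p under 0.05 (24.2%, against 14.1% of all genes), with a median log2 change of -0.07. Of this list Sesn2 also counts among the relatives below and Ccnd2 among the G1 cyclins. The regulator Mdm4 counts among the relatives too. Fas, the death receptor, rose 1.69-fold (33.6 ± 8.16 CPM in the libraries labelled S100a11 shRNA and 19.9 ± 2.22 CPM in scrambled libraries, SD, n = 3 each, adjusted p = 0.032). Plk3, a stress-responsive polo-like kinase, stood at 185, 141 and 397 CPM in libraries 2, 3 and 2600, against 41.2, 109 and 89.9 CPM in scrambled libraries 28, 30 and 31. It was thus above every scrambled library in each, by the widest margin in library 2600 (log2 change 1.59 ± 0.44 SE, edgeR adjusted p = 0.043, and 1.02 without library 2600, adjusted p = 0.11). With library totals alone neither Fas nor Plk3 passed the threshold, and the same held when library 3, 2600, 28, 30 or 31 was left out.

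The widest fall among these lower calls was that of Trp53cor1, the p53-induced non-coding RNA gene next to Cdkn1a known as lincRNA-p21. Its levels in libraries 2, 3 and 2600 rest on 71, 120 and 16 counts. It stood at 1.10, 1.92 and 0.36 CPM in libraries 2, 3 and 2600, against 6.67, 5.73 and 3.47 CPM in scrambled libraries 28, 30 and 31. Every library labelled S100a11 shRNA lay below every scrambled library (log2 change -2.18 ± 0.47 SE, 4.54-fold lower, edgeR adjusted p = 0.019). Tnfrsf10b, the mouse death receptor for TRAIL, fell 2.96-fold (1.32 ± 0.54 CPM in the libraries labelled S100a11 shRNA and 3.96 ± 0.97 CPM in scrambled libraries, SD, n = 3 each, adjusted p = 0.017). The lowest Tnfrsf10b value, in library 2600, rests on 32 counts. Ikbip fell 2.01-fold (5.15 ± 0.28 CPM in the libraries labelled S100a11 shRNA and 10.4 ± 0.74 CPM in scrambled libraries, adjusted p = 0.0069), and its neighbour Apaf1, the apoptosome scaffold, 1.39-fold (adjusted p = 0.046). The polo-like kinase gene Plk2 fell 1.68-fold (adjusted p = 0.026) and the non-coding Pvt1 1.44-fold (adjusted p = 0.042). Small RNA genes within Pvt1 on the same strand each held up to 12.7% of its count. Ikbip was past the threshold whichever library was left out. The other 5 lost the call in at least 2 such fits, and the lower calls numbered 1 or 2 without library 3, 28, 30 or 31.

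**Figure D4:**
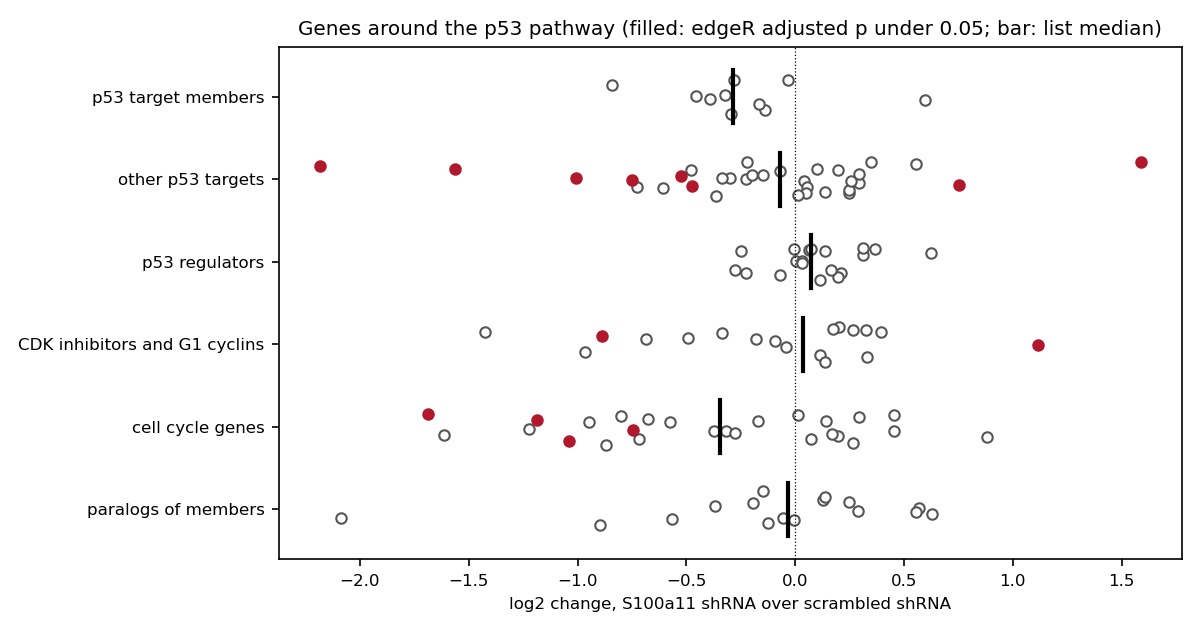
Log2 change of every tested gene of 6 lists (points; filled at an edgeR adjusted p under 0.05) with the median of each list as a bar; positive values are higher in the libraries labelled S100a11 shRNA. The p53 target members have 0 filled points and a median of -0.29, and the cell cycle list has 4 filled points, all below 0.

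Of 18 tested CDK inhibitors, G1 cyclins and their partners, 1 was higher and 1 lower (11.1%, against 14.1% of all genes). Ccne2, cyclin E2, stood at 3.77 ± 0.79 CPM in the libraries labelled S100a11 shRNA and 1.74 ± 0.05 CPM in scrambled libraries (SD, n = 3 each, log2 change 1.12 ± 0.22 SE, edgeR adjusted p = 0.014), a call lost without scrambled library 30 or 31 and with library totals. It shares 609 exonic bases with Ints8 on the other strand, whose count was 1660% of its own, and whether counting used strand is not stated, so the value is uncertain. Cdkn1c, encoding the p21 relative p57, stood at 2.57 ± 0.52 CPM in the libraries labelled S100a11 shRNA and 4.78 ± 1.13 CPM in scrambled libraries (log2 change -0.89 ± 0.25 SE, edgeR adjusted p = 0.044). It missed the threshold when library 3, 2600, 28, 30 or 31 was left out. Cdkn2a, the gene of p16 and of the Mdm2 inhibitor p19Arf, held at most 14 counts in any library and was not tested.

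Cell cycle genes, many of which p53 lowers through p21, gave 4 lower and 0 higher calls of 26 (15.4%, against 14.1% of all genes, of which 8.28% lower), with a median log2 change of -0.35. All 4 stand among the 16 listed for G2 and M phase, all of which had a negative change. The 10 listed for G1 and S phase all had a positive change, from 0.01 (Pcna) to 0.88 (Mcm5), and 0 of them were called. Mcm5 stood at 15.1, 5.1 and 4.5 CPM in libraries 2, 3 and 2600, against 4.5, 3.4 and 5.6 CPM in scrambled libraries 28, 30 and 31. Cenpf, a centromere protein gene, fell 3.22-fold (4.47 ± 1.88 CPM in the libraries labelled S100a11 shRNA and 14.5 ± 1.16 CPM in scrambled libraries, SD, n = 3 each, adjusted p = 0.0077), Mki67 2.28-fold (adjusted p = 0.021), Plk1 2.06-fold (adjusted p = 0.028) and Ccnb2 1.68-fold (adjusted p = 0.039). Without library 2 the lower calls numbered 12, in a fit that called 2370 genes lower against 1602 with all libraries. They numbered 2 without library 2600, and without library 3, 28, 30 or 31 they numbered 1, Cenpf.

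Among 16 tested relatives of the members by gene family, 0 passed the threshold with edgeR, against 14.1% of all genes. At an unadjusted p under 0.05 they numbered 5, against 29.7% of all genes. DESeq2 called 2 of the relatives and 3753 of all 19352 genes, and limma voom 1 of the relatives and 2674 of all 19352 genes. Chosen after their values were seen, Trp53inp2, the relative of Trp53inp1, stood at 403, 355 and 279 CPM in libraries 2, 3 and 2600, against 185, 233 and 254 CPM in scrambled libraries 28, 30 and 31 (log2 change 0.63 ± 0.19 SE, edgeR adjusted p = 0.056). Sesn2 stood at 23.7, 25.5 and 31.9 CPM in the libraries labelled S100a11 shRNA, against 20.97, 15.9 and 18.3 CPM in scrambled libraries, in the same order (log2 change 0.55 ± 0.17 SE, adjusted p = 0.060), while Sesn1 was lower in all 3 libraries labelled S100a11 shRNA. Both relatives lay above every scrambled library and neither passed the threshold. The other 3 relatives at an unadjusted p under 0.05 were lower, with log2 changes of -0.57 (Bok), -0.90 (Phlda1) and -2.09 (Phlda2, at most 18 counts in any library), and edgeR adjusted p of 0.16, 0.13 and 0.099.

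Markers of other liver cells differed between the groups beside these values. Of 8 cholangiocyte markers 7 fell and 0 rose, and their summed level was 157 to 180 CPM under the S100a11 label and 512 to 629 CPM under the scrambled label. Most of that sum came from Spp1 and Pkhd1, with means of 43.8 and 75.3 CPM under the S100a11 label and 258 and 225 CPM under the scrambled label. Of 8 markers of monocyte-derived macrophages 7 fell, with sums of 67.9 to 137 CPM under the S100a11 label and 285 to 345 CPM under the scrambled label. Of 9 stellate cell and fibroblast markers 6 fell (446 to 787 CPM under the S100a11 label and 966 to 1369 CPM under the scrambled label). Of 7 Kupffer cell markers 1 was called higher, and of 7 endothelial markers 1 was called higher and 1 lower. Of 8 T and B cell markers 0 were called. Over all tested genes 14.1% were called, 5.82% higher and 8.28% lower. Of 9 hepatocyte markers 1 rose, with sums of 43870 to 58160 CPM under the S100a11 label and 37320 to 45020 CPM under the scrambled label. The part of these cell types in the levels of the p53 target genes was not tested.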

How the data were processed

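The libraries were made from total liver RNA with a stranded, ribosome-depleted kit, per the labels' protocols. The table deposited by the authors holds unnormalized counts for each Ensembl gene. Build mm10 comes from the submitters' processing notes, and the aligner, counter and use of strand are not stated in those sources. In the same deposited table is a gene length in bases, an other value used only for levels per kilobase.

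Members were rows whose gene name equals one of the 10 symbols. They and the gene lists were chosen with earlier results of these data known. Of 43346 genes, filterByExpr (count of 10, total of 15) retained 19352. These were scaled by TMM and compared between labels, in edgeR 4.0.16 under R 4.3.3, by the quasi-likelihood F test (legacy set to false). Benjamini-Hochberg adjustment ran over all tested genes, with a threshold of 0.05. Standard errors are the log2 change over the root of F, and 95% intervals are unadjusted. Poisson intervals cover counting error only.

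Named genes were the members, S100a11, Trp53, Mdm4, up to 8 called genes of each list and the 5 genes most like Cdkn1a; others were chosen after their values were seen. Alternatives used limma 3.58.1, DESeq2 1.42.0, other scalings and filters, and fewer libraries. Promoters are from RefSeq (GRCm38.p6). Gene overlaps were read from GENCODE M21, which held 42462 of the identifiers. No libraries agreed within sampling noise (lowest chi-square per gene 48.4). In simulated data for this comparison (19077 genes tested), the share called was 17.2% at 1.5-fold, 54.5% at 2-fold and 90.8% at 4-fold. Only 111 genes were called there, against 2728 in the data, which makes the adjusted threshold stricter in the simulation. These shares therefore do not give the share missed in the data.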

Additional observations from a re-analysis of the deposited data

How the results depend on the processing

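Over 17 alternatives, 159 of 170 member values kept their direction and their side of the threshold, 9 passed the threshold and 2 turned sign. No alternative called a member or a cell cycle gene higher. With library totals alone the calls were 397 higher and 3970 lower over all genes, 5 members lower, 0 higher and 12 lower other p53 targets, 3 regulators lower, 0 higher and 4 lower CDK inhibitors and G1 cyclins, 7 cell cycle genes lower and 4 relatives lower. At an adjusted p of 0.1 they were 1819 higher and 2387 lower over all 19352 tested genes. Beside these stood 1 member, 2 CDK inhibitors and G1 cyclins, 7 cell cycle genes and 1 relative lower, and 2 relatives higher. DESeq2 called 1621 higher and 2132 lower over all genes, 1 member and 2 CDK inhibitors and G1 cyclins lower, and 2 relatives higher. With limma voom the calls were 1058 higher and 1616 lower over all genes and 1 relative lower. Other p53 targets gave 0 higher calls with upper-quartile factors and 1 with a filter of at least 1 CPM in 3 samples. Leaving out each library in turn gave 221 to 1806 higher and 503 to 2370 lower calls over all genes, 0 to 2 members lower, 0 to 4 higher and 1 to 7 lower other targets, 0 to 1 regulators higher, 0 to 1 higher and 0 to 4 lower CDK inhibitors and G1 cyclins, 1 to 12 cell cycle genes lower, and 0 to 1 relatives in either direction. In those fits the Ccng1 change ranged from -0.28 to 0.15 and that of Mdm4 from -0.16 to 0.058; with library totals alone the Ccng1 change was -0.37. The cause of these differences between fits, including the effect of fewer samples, was not tested. No paired analysis was possible because the groups share no replicate numbers. With 3 libraries a group, changes of 1.5-fold were often missed in the simulated data, where the adjusted threshold was stricter. The share missed in the real comparison was not measured.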
